A study of Homo sapiens with 6 samples.

Results

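The 10 genes described here encode alpha tubulin (TUBA1A, TUBA1B, TUBA1C and TUBA4A) and beta tubulin (TUBB, TUBB2A, TUBB2B, TUBB3, TUBB4B and TUBB6). They were taken by name from a gene count table of 36601 rows, and all 10 had enough counts to be tested. The samples were 6 RNA-seq libraries of U2OS, a human osteosarcoma cell line that here carries a doxycycline-induced TDP-43 with a mutated nuclear localisation signal and a fluorescent Clover tag. In the aggregates group, cells received 50 nM fibril seeds made of the TDP-43 low-complexity domain with a lipid reagent, and an image-based sorter collected cells with Clover aggregates after 48 hours. In the diffuse group, the same induced cells were given protein storage buffer in place of seeds, and cells with diffuse Clover signal were sorted at the same time. Both groups thus carry and express the transgene, no group lacks it, and all libraries share 1 batch in the labels. Each group has 3 libraries from separate transfections, described by the submitters as independent biological replicates. Seed exposure, aggregate state and sort gate change together between the groups and cannot be told apart. All libraries come from 1 engineered tumour line and none from neurons.

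Alpha and beta tubulin form the heterodimer from which microtubules are built. New chains are passed by prefoldin to the cytosolic chaperonin, and the tubulin folding cofactors then join an alpha and a beta chain. The level of free heterodimer feeds back on tubulin mRNA. When it is high, TTC5 binds the first residues of a new tubulin chain at the ribosome and, through SCAPER and the CCR4-NOT complex, the mRNA being translated is degraded. The isotypes differ mostly in their tails and in where they are used. TUBB is the common beta isotype of dividing cells, TUBA1A and TUBB3 are prominent in neurons, and rare variants of TUBA4A have been linked to amyotrophic lateral sclerosis, a disease in which TDP-43 aggregates.

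The start of the coding sequence is shown because its first codons encode the residues that this feedback reads. The 30 bases below run 5′ to 3′ from the start codon of the principal GENCODE 29 transcripts, and capitals mark the start codon and the 3 codons after it.
TUBA1A: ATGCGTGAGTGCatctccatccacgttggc
TUBA4A: ATGCGTGAATGCatctcagtccacgtgggg
TUBB: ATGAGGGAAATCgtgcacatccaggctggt
TUBB4B: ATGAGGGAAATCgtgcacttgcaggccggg
TUBB6: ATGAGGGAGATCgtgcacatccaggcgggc
TUBA1B and TUBA1C have the same first 30 bases as TUBA1A. Within the capitals, TUBB and TUBB4B are also identical. Over the whole coding sequence, alpha members were 85.0% to 97.3% identical to each other, beta members 81.3% to 98.2%, and an alpha and a beta member 56.1% to 59.7%. The closest pairs were TUBB2A and TUBB2B at 98.2% and TUBA1B and TUBA1C at 97.3%.

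Gene totals ranged from 41528336 to 46863013 counts in aggregates libraries and from 40279084 to 43091428 in diffuse libraries, so that 1 count was worth 0.0213 to 0.0248 CPM. Levels are CPM, counts scaled to a common library total, after TMM scaling, which adjusts each library for composition. Means are given with the SD over the 3 libraries of a group. TARDBP, the gene of TDP-43, averaged 2579 ± 42.5 CPM in aggregates libraries and 7436 ± 218 CPM in diffuse libraries (log2 fold change -1.53, SE 0.04, adjusted p = 1.1e-52). These counts do not separate the endogenous gene from the transgene. Of the 17839 genes tested, 75.4% changed (37.8% rose and 37.6% fell), so a call alone sets no gene apart. All 7 mesenchymal and osteoblast-lineage markers were measured, with a summed level of 3566 to 3875 CPM in aggregates and 5830 to 6067 CPM in diffuse libraries. Of the 5 neuronal markers, 3 rose and 2 fell, with a summed level of 104 to 107 CPM in aggregates and 94.7 to 99.3 CPM in diffuse libraries. Epithelial markers summed to 11.9 to 13.2 CPM in aggregates and 18.2 to 18.9 CPM in diffuse libraries, and 1 of 3 tested fell. Of the 5 blood markers, CD68 alone had enough counts to be tested, and it rose. All 10 mitosis markers fell, and their summed level was 2575 to 2760 CPM in aggregates and 4147 to 4259 CPM in diffuse libraries. MKI67, the proliferation antigen, averaged 308 ± 22.0 CPM in aggregates and 647 ± 18.8 CPM in diffuse libraries. The part of this difference in the tubulin values was not tested. In these bulk libraries, fewer cells with a transcript and less of it per cell cannot be told apart.

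Of the 10 tubulin genes, 9 fell and TUBB6 rose in aggregates cells, beside the 37.6% and 37.8% of all tested genes given above. The median log2 fold change of the 10 was -0.40, against 0.01 over all genes tested. For all 10, the 3 aggregates libraries lay wholly outside the range of the 3 diffuse libraries, as did 76.2% of all tested genes. When the test asked for more than a 1.2-fold change, 6 members were lower and 1 was higher, whereas TUBA1B, TUBA1C and TUBB no longer passed. That stricter test called 51.6% of all genes, 26.5% lower and 25.1% higher. Together the members took 0.330%, 0.339% and 0.331% of all gene counts in aggregates libraries, against 0.428%, 0.397% and 0.409% in diffuse libraries.

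**Figure D1:**
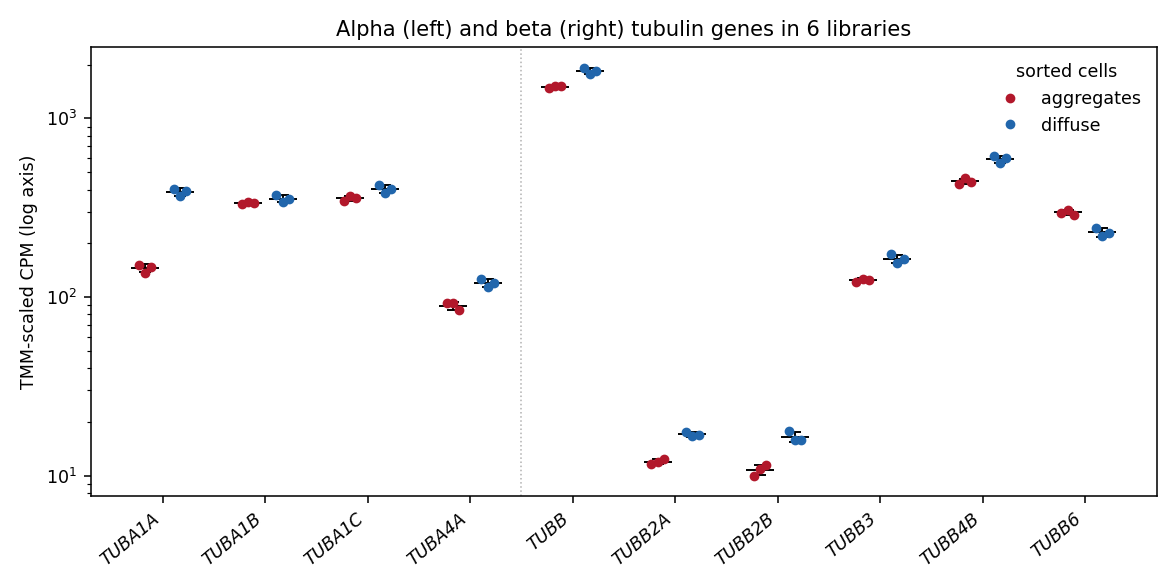
TMM-scaled CPM (log axis) of the 4 alpha and 6 beta tubulin genes, with a point for each library, aggregates in red to the left of diffuse in blue, and black marks for the mean and SD of 3 libraries. TUBA1A shows the widest gap, with 145 ± 7.38 CPM in aggregates and 387 ± 18.7 CPM in diffuse libraries, and TUBB6 is the gene whose aggregates points lie above its diffuse points.

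TUBA1A had the largest change among the members. This alpha isotype is abundant in the developing nervous system, and its variants cause malformations of the cortex. It lies on the minus strand at chr12:49184796-49189324 (hg38). It had 151, 137 and 148 CPM in aggregates libraries, against 402, 366 and 392 CPM in diffuse libraries. All 3 aggregates values were far below the lowest diffuse value. The log2 fold change was -1.41 (SE 0.04, adjusted p = 4.64e-48), which leaves 37.6% of the diffuse level. Among all genes tested, 623 of 17839 (3.49%) had a fold change as low or lower.

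The other alpha genes changed much less. TUBA1B, a ubiquitous alpha isotype at chr12:49127782-49131397 on the minus strand, had 332, 342 and 335 CPM in aggregates libraries, against 373, 343 and 352 CPM in diffuse libraries. The highest aggregates library was within 1 CPM of the lowest diffuse library. Its log2 fold change was -0.08 (SE 0.04, adjusted p = 0.0344), and the call was lost without aggregates replicate 1 (adjusted p = 0.121), diffuse replicate 1 (adjusted p = 0.227) or diffuse replicate 3 (adjusted p = 0.0564). TUBA1C, its close relative at chr12:49188736-49274603 on the plus strand, had 346, 368 and 359 CPM in aggregates libraries, against 425, 383 and 401 CPM in diffuse libraries. The gap between its groups was narrower than the range within either group, and its log2 fold change was -0.17 (SE 0.04, adjusted p = 1.97e-05). With a correction for GC content and gene length, the log2 fold changes of both were more negative, at -0.18 for TUBA1B and -0.30 for TUBA1C. TUBA4A, the alpha gene with rare variants in amyotrophic lateral sclerosis, lies at chr2:219249711-219278170 on the minus strand. It had 92.1, 92.3 and 84.2 CPM in aggregates libraries, against 126, 114 and 119 CPM in diffuse libraries. The third aggregates library was the lowest of the 6, and the log2 fold change of TUBA4A was -0.42 (SE 0.04, adjusted p = 3.12e-16).

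Among the beta genes, TUBB, the class I isotype at chr6:30720201-30725426 on the plus strand, had the most counts. Its levels were 1486, 1519 and 1512 CPM in aggregates libraries, against 1921, 1765 and 1845 CPM in diffuse libraries. The aggregates libraries were close to each other and all lower, with a log2 fold change of -0.29 (SE 0.04, adjusted p = 2.06e-10). TUBB4B, a widely expressed class IV isotype at chr9:137241213-137243707 on the plus strand, had 430.5, 461 and 442 CPM in aggregates libraries. In diffuse libraries it had 615, 563 and 598 CPM, and the log2 fold change was -0.41 (SE 0.04, adjusted p = 8.31e-18). TUBB3, the class III isotype used as a neuronal marker and often present in tumour lines, lies at chr16:89921392-89938761 on the plus strand. It had 122, 127 and 125 CPM in aggregates libraries, against 173, 155 and 163 CPM in diffuse libraries, with a log2 fold change of -0.39 (SE 0.04, adjusted p = 6.97e-17). The 2 class II genes, known for high levels in brain, were the least abundant members. TUBB2A (chr6:3153669-3157526, minus strand) had 11.6, 11.9 and 12.4 CPM in aggregates libraries, against 17.6, 16.6 and 16.9 CPM in diffuse libraries, a log2 fold change of -0.51 (SE 0.06, adjusted p = 1.13e-12). TUBB2B (chr6:3224261-3231730, minus strand) had 10.0, 10.9 and 11.4 CPM in aggregates libraries, against 17.7, 15.8 and 15.8 CPM in diffuse libraries, a log2 fold change of -0.61 (SE 0.06, adjusted p = 5.72e-15). For both class II genes the groups stood clearly apart.

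TUBB6, the class V beta isotype at chr18:12307669-12344320 on the plus strand, moved the other way. It had 296, 308 and 289 CPM in aggregates libraries, against 244, 219 and 228 CPM in diffuse libraries. Every aggregates library was above every diffuse library. The log2 fold change was 0.37 (SE 0.04, adjusted p = 1.37e-15), or 129% of the diffuse level. With the correction for GC content and gene length it was 0.18 and still passed. Within the diffuse group, replicate 1 held the highest CPM for all 10 members and replicate 2 the lowest for 9 of them. Within the aggregates group, replicate 2 was highest for 7 members and replicate 1 lowest for 7.

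Reads that cross an intron give a second measure of the same RNA, and near-identical copies without introns do not add to it. For each of the 9 members with tested introns, the tested intron with the most reads was used (TUBB2B had no tested intron). By this measure 6 members fell and TUBB6 rose, while the median over all 144620 tested introns was -0.04. The share of all tested introns that passed was not counted, so these calls have no background beside them. The intron of TUBA1A at chr12:49186459-49186610 had 51.1 ± 1.28 CPM of intron counts in aggregates libraries and 128 ± 6.21 CPM in diffuse libraries, a log2 fold change of -1.32 (SE 0.06). The intron of TUBB6 at chr18:12311054-12325066 had 77.6 ± 2.87 CPM in aggregates libraries and 57.9 ± 4.40 CPM in diffuse libraries, a log2 fold change of 0.42 (SE 0.06). The fall of TUBA1A therefore had about the same size in spliced reads, and the main intron of its other cluster gave -1.37. The size of the TUBB6 rise depended on the intron. With 10969 and 10071 reads against 11319, its introns at chr18:12308350-12308686 and chr18:12308796-12310942 gave 0.62 and 0.52. TUBA1B had 426 ± 20.8 CPM in aggregates libraries and 421 ± 23.9 CPM in diffuse libraries, a log2 fold change of 0.02 (adjusted p = 0.847), so its small difference in gene counts turned its sign. TUBA1C did not pass either, with a log2 fold change of -0.10 (adjusted p = 0.154). The main intron of its other cluster, at chr12:49269977-49272252, did pass, at -0.17 (adjusted p = 0.00564). The call on TUBA1C in spliced reads thus depends on the intron used. The values of TUBB (-0.16, adjusted p = 0.00372) and TUBB3 (-0.18, adjusted p = 0.0226) were closer to 0 than in gene counts. So were those of TUBB4B (-0.27), TUBB2A (-0.42) and TUBA4A (-0.39). For TUBB3, the main introns of its other clusters gave -0.30 and -0.34. For TUBA4A, the main intron of its other cluster gave -0.40, and a further intron with many reads gave -0.24. Further introns of TUBB4B with many reads gave -0.26 and -0.35.

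For every member but TUBA4A, part of the transcript is repeated elsewhere. The treatment of reads that match several places is not given in the sources used here. Among 100-base windows, the share that also occurs in a transcript of a gene at another locus was 56.4% for TUBB2A and 46.2% for TUBB2B. It was 37.2% for TUBA1B, 22.3% for TUBA1A and 11.5% for TUBA1C. For TUBB, TUBB3 and TUBB4B it was 5.10%, 5.15% and 2.86%, and TUBA4A and TUBB6 had no such window. With windows of 50 bases the shares were larger, at 65.5% for TUBB2A, 62.7% for TUBA1B, 52.2% for TUBB2B, 48.0% for TUBA1A and 25.1% for TUBA1C. They were 18.2% for TUBB, 9.89% for TUBB4B, 8.90% for TUBB3 and 0.993% for TUBB6, and TUBA4A again had none. The read length is not stated, so the extent of this uncertainty is not known, and it touches every member but TUBA4A. All members but TUBB2A also overlap another annotated gene on the opposite strand, among them TUBA1A with TUBA1C and TUBB6 with AFG3L2, and the strand setting of the counting is not given in the sources used here.

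**Figure D2:**
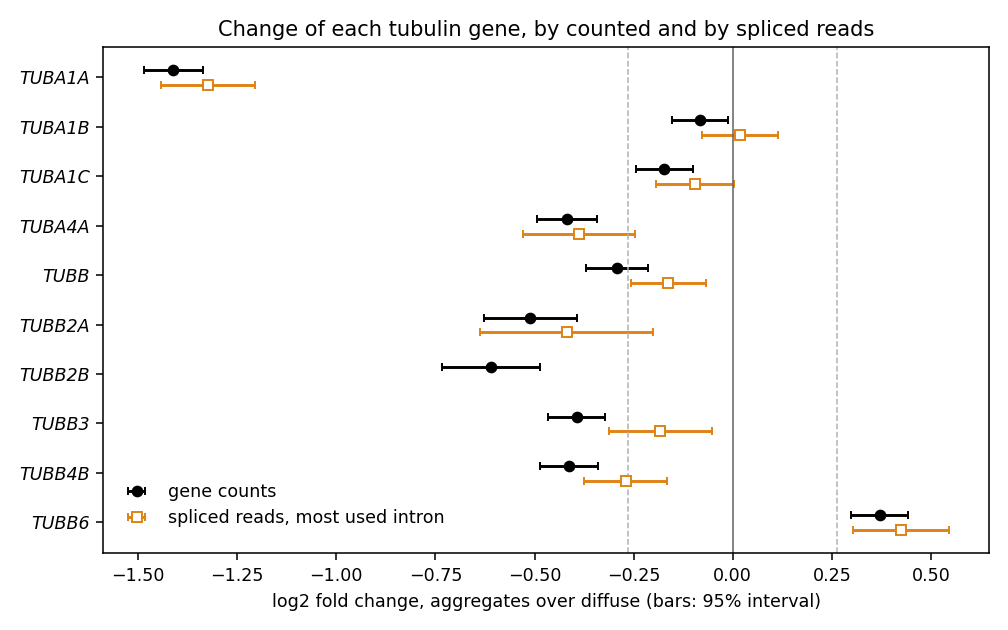
Log2 fold change, aggregates over diffuse, of each tubulin gene from gene counts (filled circles) and from spliced reads of its most used intron (open squares), with bars for the 95% interval and dashed lines at a fold of 1.2 in either direction. TUBA1A lies far left in both measures (-1.41 and -1.32), TUBB6 lies right of 0 in both (0.37 and 0.42), and TUBA1B lies near 0 in both.

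To compare levels between genes, CPM was divided by the length of the principal transcript in kilobases. On this scale TUBB was the highest member, at 564 ± 6.64 CPM per kb in aggregates and 691 ± 29.2 CPM per kb in diffuse libraries. TUBB4B followed with 272 ± 9.50 CPM per kb in aggregates and 362 ± 16.1 in diffuse libraries, then TUBA1B with 207 ± 3.09 in aggregates and 219 ± 9.43 in diffuse libraries. The order below these differed between the groups. In aggregates libraries TUBB6 was next at 144 ± 4.56 CPM per kb, before TUBA1C at 119 ± 3.69 and TUBA1A at 76.5 ± 3.88. In diffuse libraries TUBA1A was next at 203 ± 9.84 CPM per kb, before TUBA1C at 134 ± 6.92 and TUBB6 at 112 ± 6.08. TUBA1A thus ranked 6 of 10 in aggregates and 4 of 10 in diffuse cells, and TUBB6 4 and 6. The bottom of the order was the same in both groups, with TUBB3, TUBA4A, TUBB2A and TUBB2B. The middle of the order depends on the transcript length used. With the median length of basic transcripts, TUBA1A ranked 7 in aggregates and 5 in diffuse cells and TUBB6 2 and 4, TUBA1C was the highest alpha gene in both groups, and TUBB3 ranked 6 in aggregates and 7 in diffuse cells. With the union of exons, TUBA1A ranked 6 in aggregates and 3 in diffuse cells, where it was the highest alpha gene, and TUBB6 5 and 6. With each of these 3 lengths TUBB ranked 1 and TUBA4A, TUBB2A and TUBB2B ranked 8, 9 and 10 in both groups. TUBB2B was the lowest at 5.33 ± 0.356 CPM per kb in aggregates and 8.14 ± 0.532 in diffuse libraries. Neighbours in each order had ranges that did not overlap over the 3 libraries, except TUBA1B (211 to 229 CPM per kb) and TUBA1A (193 to 212) in diffuse libraries.

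Summed per length, the 4 alpha members reached 441, 447 and 442 CPM per kb in aggregates libraries, against 640.5, 583 and 612 in diffuse libraries. The aggregates sum was 72.5% of the diffuse sum. Without TUBA1A the alpha sum was 367 ± 7.09 CPM per kb in aggregates and 408 ± 19.2 in diffuse libraries, or 89.9%. The 6 beta members summed to 1044, 1084 and 1061 CPM per kb in aggregates libraries, against 1331, 1217 and 1277 in diffuse libraries, or 83.3%. With the other 2 lengths the alpha sum was 74.2% and 71.6% of the diffuse sum, and the beta sum 87.2% and 82.1%. The ratio of beta to alpha sums was 2.37, 2.42 and 2.40 in aggregates libraries, against 2.08, 2.09 and 2.09 in diffuse libraries, with no overlap. With the median length of basic transcripts, the ratio of mean sums was 2.22 in aggregates and 1.89 in diffuse libraries. With the union of exons it was 3.27 and 2.86. With the principal length the higher ratio rests on TUBA1A, since without it the alpha sum kept 89.9% of its diffuse level and the beta sum 83.3%. These sums are descriptions, since an exact test of 3 against 3 libraries cannot go below p = 0.10.

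Within the alpha sum, TUBA1A held 18.0%, 16.1% and 17.6% in aggregates libraries, against 33.1%, 33.0% and 33.7% in diffuse libraries. With the principal length, its share in diffuse cells was thus close to that of TUBA1B, which held 46.6 ± 0.365% in aggregates and 35.8 ± 0.340% in diffuse libraries. TUBA1C held 26.9 ± 0.665% in aggregates and 21.9 ± 0.119% in diffuse libraries. The share of TUBA4A differed by less than its spread in aggregates libraries, with 9.34 ± 0.461% there and 9.05 ± 0.0496% in diffuse libraries. In the beta sum, TUBB6 held 13.7%, 13.8% and 13.2% in aggregates libraries, against 8.88%, 8.72% and 8.64% in diffuse libraries. TUBB held the largest part of the beta sum in both groups, 53.1 ± 0.505% in aggregates and 54.2 ± 0.140% in diffuse libraries. TUBB4B held 25.6 ± 0.399% in aggregates and 28.4 ± 0.215% in diffuse libraries. The size of the TUBB6 difference depends on the transcript length used. Its 4.82 points became 8.16 with the median length of basic transcripts and 3.42 with the union of exons. In the same order, the TUBA1B difference of 10.8 points became 7.46 and 9.63. That of TUBA1C, 4.90 points, became 7.11 and 6.30. The TUBB difference of -1.10 points became -2.85 and -0.29, and that of TUBB4B, -2.82, became -3.35 and -2.54. With the median length, TUBA1C and not TUBA1B held the largest alpha share in both groups.

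**Figure D3:**
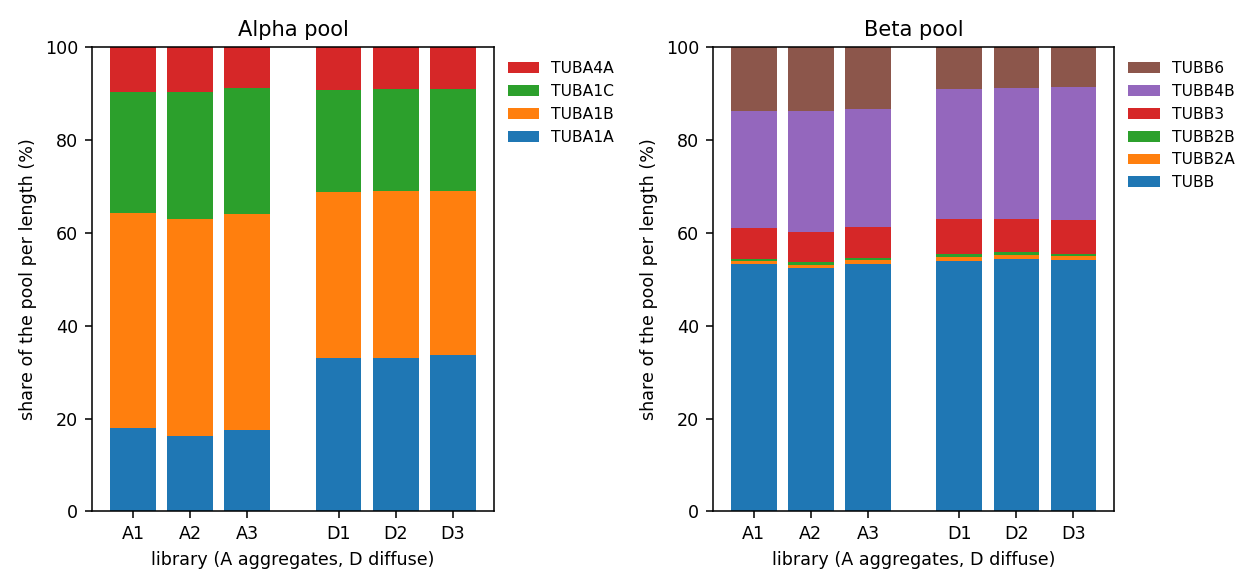
Share of each member in the summed alpha (left) and beta (right) level per length, in percent, as stacked bars for aggregates libraries A1 to A3 and diffuse libraries D1 to D3. The TUBA1A segment is 17.3% on average in aggregates and 33.2% in diffuse libraries, and the TUBB6 segment 13.6% in aggregates and 8.75% in diffuse libraries.

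TDP-43 is known as a repressor of splice sites, so intron use within the members was compared too. LeafCutter places introns with a common splice site in 1 cluster, and its table gave 14 tested clusters in 9 members, and 4 of them changed, against 5.02% of all 35898 tested clusters. The 4 clusters lie in TUBA1A, TUBA1B, TUBB and TUBB6 and held 10637 to 91880 reads over the 6 libraries. A cluster could enter the test with 10 counts in each library, and small shifts are called more readily in deep clusters. Depth was not matched in this comparison, so 4 of 14 is not read as an excess. In each, the intron that stood out was a minor one that is annotated in GENCODE 29. An intron of TUBA1A of 1583 bases (chr12:49186834-49188416, minus strand) took 5.09%, 6.06% and 5.53% of its cluster in aggregates libraries, against 2.57%, 3.61% and 2.53% in diffuse libraries (cluster adjusted p = 0.00335). Its own level was 2.03 ± 0.241 CPM of intron counts in aggregates and 2.65 ± 0.460 CPM in diffuse libraries, a difference that did not pass (adjusted p = 0.168). The higher share thus came with a lower level of the rest of the cluster.

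In TUBA1B, an intron of 396 bases (chr12:49129723-49130118, minus strand) shares one end with the main intron of 1575 bases. It had 51, 55 and 47 reads in aggregates libraries, against 15, 10 and 10 reads in diffuse libraries, although the main intron hardly differed. These were 0.433%, 0.407% and 0.431% of the cluster in aggregates libraries, against 0.130%, 0.0930% and 0.0804% in diffuse libraries (cluster adjusted p = 2.56e-06). The form is rare in both groups, at under 1% of the cluster. In TUBB, an intron of 638 bases (chr6:30721899-30722536, plus strand) took 0.475%, 0.507% and 0.429% in aggregates libraries, against 0.173%, 0.271% and 0.360% in diffuse libraries (cluster adjusted p = 0.0336). In TUBB6, an intron of 18092 bases (chr18:12311054-12329145, plus strand) that skips past the end of the most used one took 2.62%, 2.30% and 2.16% in aggregates libraries, against 3.51%, 3.87% and 3.77% in diffuse libraries (cluster adjusted p = 0.0042). The own level of this TUBB6 intron was 5.74 ± 0.647 CPM of intron counts in aggregates and 6.42 ± 0.0448 CPM in diffuse libraries. That difference did not pass (adjusted p = 0.422), so the lower share came with a higher level of the most used intron. The groups did not overlap for any of these 4 introns. They were picked for a difference in use between the same groups, so this adds no support. The TUBB call was lost without any 1 of aggregates replicates 1 (adjusted p = 0.0979), 2 (adjusted p = 0.193) and 3 (adjusted p = 0.0659), and without diffuse replicate 1 (adjusted p = 0.392) or 2 (adjusted p = 0.119). The TUBB6 call was lost without aggregates replicate 3 (adjusted p = 0.0582), diffuse replicate 2 (adjusted p = 0.0536) or diffuse replicate 3 (adjusted p = 0.053).

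**Figure D4:**
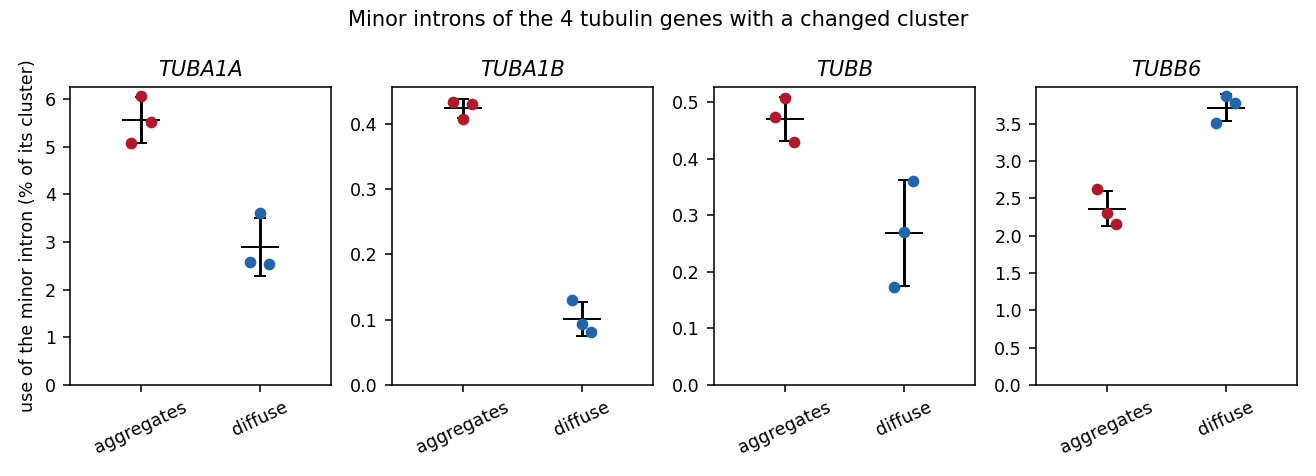
Use of 1 minor intron in each of the 4 tubulin genes with a changed cluster, as a percent of the reads of its cluster, with a point for each library, aggregates left of diffuse, and marks for the mean and SD of 3 libraries. Use is higher in aggregates libraries for TUBA1A, TUBA1B and TUBB and lower for TUBB6, and the largest share drawn is 6.06%.

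The upstream sequences of TUBA1A and TUBB6 are shown because these genes changed most in opposite directions. The 250 bases before the start are from RefSeq (GRCh38.p14), 5′ to 3′ on the gene's strand, and capitals mark CCAAT and GGGCGG on either strand. The windows are chr12:49189081-49189330 (minus strand) for TUBA1A and chr18:12307991-12308240 (plus strand) for TUBB6. RefSeq gives TUBB6 a second start, whose window (chr18:12307419-12307668) ends at the base before the GENCODE 29 gene interval and holds none of the 3 motifs searched. The TUBB6 window shown lies inside that interval, and most of the TUBA1A window lies inside the interval of TUBA1A.
TUBA1A: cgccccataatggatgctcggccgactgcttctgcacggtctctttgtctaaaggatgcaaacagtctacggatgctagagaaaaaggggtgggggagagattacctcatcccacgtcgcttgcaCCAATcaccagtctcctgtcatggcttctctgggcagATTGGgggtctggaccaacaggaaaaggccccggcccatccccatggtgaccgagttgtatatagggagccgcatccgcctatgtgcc
TUBB6: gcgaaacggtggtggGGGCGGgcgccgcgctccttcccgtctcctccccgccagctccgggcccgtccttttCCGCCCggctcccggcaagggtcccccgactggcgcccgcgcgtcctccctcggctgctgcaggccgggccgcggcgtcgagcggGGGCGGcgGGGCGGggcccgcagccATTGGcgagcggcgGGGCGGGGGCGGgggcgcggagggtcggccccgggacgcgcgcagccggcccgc
The TUBA1A window holds CCAAT 2 times and no GGGCGG, and the TUBB6 window shown holds CCAAT 1 time and GGGCGG 6 times, with no overlap between the motifs. Neither holds TATAAA. The difference in motifs between TUBA1A and TUBB6 therefore depends on which TUBB6 start is taken. Of 35116 windows of this length, 32.0% hold CCAAT on either strand, 42.6% hold GGGCGG and 10.7% hold TATAAA. These letters are a description of the windows, and binding was not measured.

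The genes that make, fold, modify and bind tubulin were divided in direction. Each list count from here on stands beside 37.8% of all tested genes that rose and 37.6% that fell. Of 10 other tubulin genes, 7 were tested, 3 rose and 2 fell. How much of their transcripts is repeated elsewhere was not measured. TUBD1, the delta tubulin of centrioles, averaged 23.0 ± 1.32 CPM in aggregates and 72.5 ± 2.02 CPM in diffuse libraries (log2 fold change -1.66, adjusted p = 3.84e-54). TUBE1, the epsilon tubulin also found at centrioles, averaged 21.6 ± 0.231 CPM in aggregates and 14.5 ± 1.10 CPM in diffuse libraries (0.58, adjusted p = 4.87e-16). These 2 centriolar tubulins moved in opposite directions. The brain beta isotype TUBB4A rose at a low level (0.23, adjusted p = 0.011), and TUBA3C fell by 0.10 on the log2 scale (adjusted p = 0.00972) with overlapping groups. TUBB4A lost its call without aggregates replicate 2 or diffuse replicate 3, with DESeq2 and with the correction for GC content and gene length, and TUBA3C without aggregates replicate 1 or diffuse replicate 1. TUBAL3, named after its value was seen, made up the third rise at 1.09 ± 0.135 CPM in aggregates and 0.362 ± 0.0515 CPM in diffuse libraries.

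Most subunits of prefoldin rose. Of the 6, 5 passed, and PFDN1 did not pass, with a log2 fold change of 0.05 (adjusted p = 0.310). PFDN2 averaged 105 ± 1.99 CPM in aggregates and 56.7 ± 1.96 CPM in diffuse libraries (0.89, adjusted p = 2.82e-38), and PFDN6 44.0 ± 2.07 CPM in aggregates and 24.3 ± 0.366 CPM in diffuse libraries (0.86, adjusted p = 3.33e-31). PFDN4 and PFDN5 rose by 0.65 and 0.39 on the log2 scale. The median over the 6 subunits was 0.52. Of the 7 folding cofactors, 4 rose and 2 fell. TBCA, which holds beta tubulin, averaged 63.3 ± 4.53 CPM in aggregates and 33.3 ± 0.611 CPM in diffuse libraries (0.93, adjusted p = 7.01e-34). TBCC, which completes the release of the heterodimer, rose by 0.49 (adjusted p = 7.17e-13). TBCB, which holds alpha tubulin, and ARL2, a GTPase that binds cofactor D, rose by 0.14 and 0.24, and neither call held with the correction for GC content and gene length (-0.06 and 0.05). TBCD, cofactor D, did not pass (-0.04, adjusted p = 0.278), and TBCE, which binds alpha tubulin, fell by 0.35 (adjusted p = 9.01e-07). TBCEL, a relative of TBCE that destabilises tubulin, averaged 11.6 ± 0.724 CPM in aggregates and 23.0 ± 0.818 CPM in diffuse libraries (-0.99, adjusted p = 7.78e-29).

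All 4 genes of the feedback on tubulin mRNA changed, 2 in each direction, where 75.4% of all genes tested changed. TTC5, the factor that reads the new chain, averaged 23.4 ± 0.862 CPM in aggregates and 19.5 ± 0.676 CPM in diffuse libraries (log2 fold change 0.26, adjusted p = 7.1e-06). CNOT11, the CCR4-NOT subunit that SCAPER contacts, averaged 99.8 ± 6.26 CPM in aggregates and 75.3 ± 3.42 CPM in diffuse libraries (0.41, adjusted p = 1.62e-14). SCAPER, the adaptor, averaged 22.8 ± 0.782 CPM in aggregates and 28.4 ± 2.63 CPM in diffuse libraries (-0.32, adjusted p = 1.21e-07). CNOT1, the scaffold of the complex, fell by 0.18 (adjusted p = 1.01e-05). Neither fall was called with the correction for GC content and gene length (-0.10 for SCAPER and 0.05 for CNOT1), and against a fold of 1.2 only CNOT11 passed.

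All 4 stathmins, which bind free heterodimer and keep it from assembling, fell, beside 37.6% of all tested genes. The median of their log2 fold changes was -0.79. STMN1 averaged 377 ± 7.14 CPM in aggregates and 582 ± 4.48 CPM in diffuse libraries (-0.63, adjusted p = 1.37e-29), and STMN3 39.4 ± 1.01 CPM in aggregates and 58.0 ± 4.79 CPM in diffuse libraries (-0.56, adjusted p = 5.07e-18). STMN2, a known splicing target of TDP-43, was low in both groups at 0.206 ± 0.0828 CPM in aggregates and 2.56 ± 0.330 CPM in diffuse libraries (-3.62, adjusted p = 2.18e-27). STMN4 was under 1 CPM throughout (-0.96, adjusted p = 0.00193).

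Of 19 tested enzymes that modify tubulin, 4 rose and 10 fell. VASH1 and VASH2, which remove the last tyrosine of alpha tubulin, fell by 0.85 and 1.14 on the log2 scale (adjusted p = 1.41e-24 and 1.05e-19), and TTLL5, which adds glutamate chains, by 0.71 (adjusted p = 4.67e-31). TTLL12, another member of the tyrosine ligase-like family, averaged 90.8 ± 5.54 CPM in aggregates and 39.7 ± 0.646 CPM in diffuse libraries (adjusted p = 6.82e-45). Of 8 severing enzymes, 2 rose and 6 fell. FIGN, or fidgetin, averaged 40.5 ± 2.65 CPM in aggregates and 104 ± 2.81 CPM in diffuse libraries (-1.37, adjusted p = 3.84e-49), and the katanin-like KATNAL1 fell by 0.86 (adjusted p = 7.5e-38). SPAST, or spastin, fell by 0.29 (adjusted p = 9.36e-10), a call that did not hold with the correction for GC content and gene length. KATNAL2, named after its value was seen, rose at a low level, with 0.630 ± 0.0982 CPM in aggregates and 0.376 ± 0.0602 CPM in diffuse libraries (0.74, adjusted p = 0.0106), and it was not called without aggregates replicate 1 or with DESeq2.

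Gamma-tubulin and its ring complex, which nucleate microtubules, had 3 rises and 5 falls among 11 genes. NEDD1, which brings the complex to the centrosome, fell by 0.77 (adjusted p = 6.34e-31), and the small subunit MZT1 by 0.50 (adjusted p = 1.03e-19). The core subunit TUBGCP3 fell by 0.45 (adjusted p = 1.77e-20), whereas TUBGCP5 rose by 0.38 (adjusted p = 1.56e-10). Of 23 microtubule-associated and plus-end proteins, 8 rose and 9 fell. MAP1A and MAP2, known for binding the microtubule lattice in neurons, rose by 0.97 and 0.90 (adjusted p = 3.68e-35 and 1.15e-38). Of the plus-end binding proteins, MAPRE3 rose by 0.88 (adjusted p = 4.13e-28) and MAPRE1 fell by 0.52 (adjusted p = 3.71e-24). Members of 1 family thus moved in opposite directions here too.

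**Figure D5:**
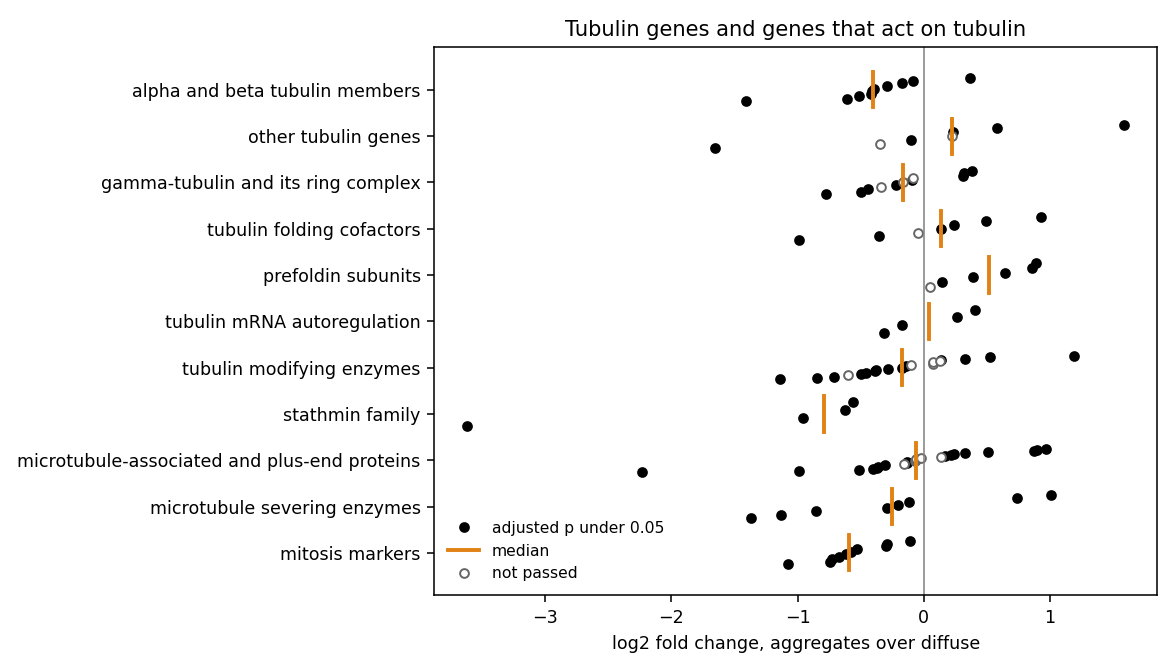
Log2 fold change, aggregates over diffuse, of every tested gene in the tubulin set, in the lists of genes that act on tubulin, and in the mitosis markers, filled where the adjusted p is under 0.05, with an orange line at each list's median. The medians are -0.40 for the tubulin genes, 0.52 for prefoldin, -0.79 for the stathmins and -0.60 for the mitosis markers.

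The genes whose levels followed those of TUBA1B and TUBB, the alpha and beta members highest per length of the principal transcript, most closely were taken from 8373 genes whose mean level reached 20 CPM. Likeness was Pearson r of log2(CPM + 0.5) over the 6 libraries, which fall in 2 groups and share their scaling. For TUBA1B these were KIAA2013 (r = 0.992), the amino acid transporter SLC7A5 (r = 0.990) and TUBA3C (r = 0.989). TUBA3C is itself an alpha tubulin gene, and reads that it may share with TUBA1B were not examined. In CPM without regard to length, TUBA1C was above TUBA1B in both groups, and genes like TUBA1C were not searched for. For TUBB they were UBAP1 (r = 0.9995), an ESCRT-I subunit, PLEKHB2 (r = 0.999) and the N-myristoyltransferase NMT1 (r = 0.999).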

How the data were processed

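PolyA-selected RNA of the 6 sorted samples was sequenced with a stranded kit, per the labels. The submitters' processing notes name hg38, STAR 2.7.11a and fastp 0.23.2; for the gene counter, its annotation, its strand setting and the read length, nothing is stated there. The authors deposited raw counts per gene (36601 rows, 10 names on several rows) and LeafCutter counts per intron (153462 introns; 25341453 to 32020553 counts per library).

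Genes were tested with edgeR 4.0.16 (R 4.3.3; filterByExpr by group, TMM, robust quasi-likelihood fit, F test of aggregates over diffuse, Benjamini-Hochberg adjustment, threshold 0.05). All adjusted p-values for genes come from this test. Introns with at least 10 counts were kept where their cluster held several such introns and at least 10 counts in each library. Use within a cluster was tested with diffSpliceDGE, by the Simes method per cluster. The level of a single intron was tested with the quasi-likelihood F test. Both were adjusted by Benjamini-Hochberg. The biological coefficient of variation was 3.08%. Replicates differed by 2.59 to 6.34 chi-square per degree of freedom, so none was a copy of another. Scripts were tested on simulated data.

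Members and lists were chosen with earlier results of these data known. All members were named, then every gene of the feedback, stathmin and cofactor lists and, from each other list, changed genes among the 4 largest changes with a mean of at least 5 CPM. A result under this rule is not reported here. The principal-transcript length was chosen after the planned median length proved shorter than the coding sequence of TUBB3 and TUBB6. Alternatives were DESeq2 1.42.0, other scalings, no filter, a fold of 1.2, GC and length correction (available for 96.6% of genes), a replicate block and leaving out each library. Other differences between libraries were searched for in the labels, which give 1 batch. Reads carry no molecular identifiers, so depth gives counting error only.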

Additional observations from a re-analysis of the deposited data

How the results depend on the processing

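All 10 members kept their direction under the 13 other settings tried on gene counts, with log2 fold changes of -1.52 to -1.37 for TUBA1A and 0.18 to 0.41 for TUBB6. Spliced reads, an alternative added after seeing the data, turned the sign of TUBA1B (0.0185). With the GC and length correction the log2 fold changes of CNOT1 (0.0532), SLC7A5 (0.0011), TBCB (-0.0600) and TBCD (0.14) turned their sign, 1 prefoldin subunit was lower, and 0 feedback genes were lower. Against a fold of 1.2, the counts were 1 lower in other tubulins, 1 higher and 3 lower in the gamma-tubulin ring, 2 higher and 1 lower in cofactors, 1 higher and 0 lower in the feedback, 5 lower in modifying enzymes, 4 higher in associated proteins, 3 lower in severing enzymes and 4483 higher in all genes. DESeq2 called 1 severing enzyme higher. The cluster F test called 2721 clusters, against 1802. Leaving out each library gave 1171 to 1318 clusters (1171 without diffuse replicate 3), 2 to 3 member clusters (2 without aggregates replicate 3 or diffuse replicate 2), 1 to 2 falls in other tubulins (1 without aggregates or diffuse replicate 1) and 1 to 2 rises in severing enzymes (1 without aggregates replicate 1). The cause of these moves was not tested. The share difference of TUBA1A was -14.6 points with the median transcript length, against -16.0, and that of TUBB6 was 8.16 points with that length and 3.42 with the union of exons. Same-numbered libraries deviated together with r of 0.0362, 0.0831 and 0.0602, so the numbers do not pair them. With the replicate number as a block, 1 member rose and 9 fell, 6782 genes rose, 6748 fell, 1494 clusters changed, and no call on a member gene was lost. Of the other comparisons of list counts, clusters and shares, 324 stayed within the tolerance set for them. For counts that tolerance was wide. It took in the 6 members lower against a fold of 1.2, where the main test had 9. It also took in 4719 genes lower against that fold, where the main test had 6714. Depth limits STMN2, STMN4, TUBAL3 and the minor introns, which rest on few counts.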
